A study of Homo sapiens with 6 samples.

Results

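The transcripts of condensin and cohesin subunits were examined in RNA-seq libraries of HCCC9810, an established human cholangiocarcinoma (CCA) cell line with a wild type genotype. The 10 genes were taken by symbol from the deposited count table, which lists 19470 genes. They are the condensin genes SMC2, SMC4, NCAPD2, NCAPG and NCAPH and the cohesin genes SMC1A, SMC3, RAD21, STAG1 and STAG2. All 10 were present, and all passed the filter on low counts that left 13066 genes for testing. One group was exposed to isolinderalactone (ILL), a plant sesquiterpene lactone, at 20 μM for 24 h, and the control group received the vehicle, DMSO, over the same 24 h. Each group had 3 libraries, and total counts ranged from 34282764 to 37758569. The labels do not say that the libraries came from separate cultures, so p-values measure the spread between these libraries, which may be technical. The cells are 1 cell line at 1 dose and 1 time. Markers of biliary epithelium, such as KRT7, KRT19 and EPCAM, had a summed level of 5027 to 5148 FPKM, a level scaled by gene length and library total, in control and 4381 to 4613 FPKM in ILL libraries. The summed level of 5 immune markers was 22.8 to 25.4 FPKM in control and 65.0 to 67.9 FPKM in ILL libraries and came almost wholly from CD68, a lysosomal protein. The remaining immune markers reached at most 1.31 FPKM (LYZ), and PTPRC and CD3E at most 0.062 FPKM. The 5 fibroblast markers summed to 2.62 to 2.85 FPKM in control and 3.24 to 3.73 FPKM in ILL libraries, of which COL1A1 had 1.62 to 2.03 and 2.16 to 2.78 FPKM and DCN at most 0.004 FPKM. The 5 hepatocyte markers summed to 8.57 to 9.66 FPKM in control and 8.34 to 13.8 FPKM in ILL libraries. Most of this was SERPINA1, at 5.7 to 6.5 FPKM in control and 5.5 to 6.9 FPKM in ILL libraries, and ALB. ALB had 2.0 to 3.0 FPKM in control and 2.6, 3.0 and 6.6 FPKM in ILL replicates 1 to 3. CYP3A4 was at 0 in every library. The 4 endothelial markers summed to 0.195 to 0.315 FPKM in control and 0.293 to 0.351 FPKM in ILL libraries. The part of these lists in the results was not tested.

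Condensin and cohesin are ring-shaped ATPases built on a pair of SMC (structural maintenance of chromosomes) proteins, which are closed by a kleisin subunit and bound by HEAT-repeat subunits. Condensin folds chromatin into compact chromosomes as cells enter mitosis. Cohesin holds sister chromatids together from DNA replication until anaphase, and it also forms chromatin loops throughout interphase. In condensin the SMC pair is SMC2 and SMC4, the kleisin of condensin I is NCAPH, and its HEAT-repeat subunits are NCAPD2 and NCAPG. In cohesin the SMC pair is SMC1A and SMC3, the kleisin is RAD21, and STAG1 or STAG2 is bound as an alternative subunit.

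ILL-treated cells had much lower levels of every condensin transcript. Levels of the cohesin genes SMC1A, SMC3 and RAD21 were moderately lower, and the STAG subunits had a small or no detected difference. All 5 condensin genes fell, by 4.70-fold to 9.62-fold. Among cohesin genes, SMC1A, SMC3, RAD21 and STAG1 fell, by 1.24-fold to 2.19-fold, and STAG2 was the member that did not pass the test. Thus 9 of 10 members fell at an adjusted p under 0.05 in edgeR's quasi-likelihood test, where 36.9% of all tested genes fell and 36.2% rose. With a fold change under 0.5 required as well, the cutoff of the study's methods, 7 of 10 members were called lower, against 11.4% of tested genes. In these same 9 members all ILL libraries lay below all control libraries, which was so for 38.0% of tested genes. The median log2 fold change was -2.42 over the condensin members and -0.83 over the cohesin members, beside -0.0012 over all tested genes. In bulk RNA, fewer cells that express a gene and less RNA per cell cannot be told apart.

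**Figure D1:**
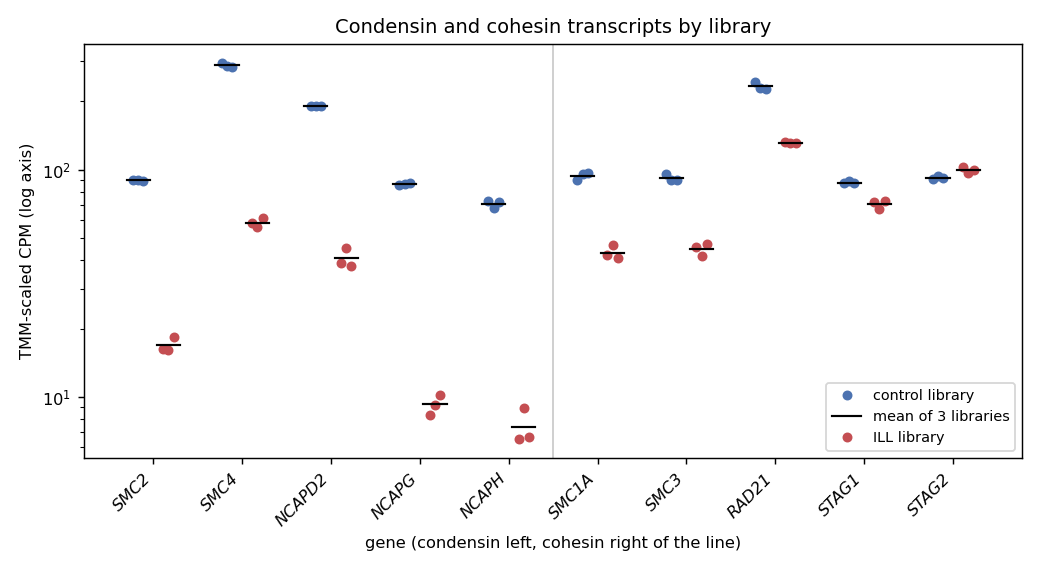
CPM (counts scaled to the size of each library by the trimmed mean of M values, TMM, on a log axis) of the 10 genes, with 1 point for each library and a line at the mean of the 3 libraries of a group. For the condensin genes, on the left, the ILL points lie far below the control points, for example at 6.51 to 8.98 CPM against 67.9 to 73.2 CPM for NCAPH. For STAG2 the ILL points lie slightly above the control points.

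The kleisin gene NCAPH and the HEAT-repeat gene NCAPG had the lowest log2 fold changes of the condensin members. NCAPH was counted 2841, 2387 and 2548 times in control replicates 1 to 3 and 228, 309 and 233 times in ILL replicates 1 to 3. After scaling of the libraries this was 71.0 ± 2.75 CPM (SD, n = 3) in controls and 7.38 ± 1.38 CPM (SD, n = 3) with ILL. The log2 fold change was -3.27 (standard error, SE, 0.10, adjusted p = 1.0e-19), so that 10.4% of the control level was left, and 0.406% of all tested genes had a lower log2 fold change. ILL replicate 2 was the highest of the treated libraries, and without it the log2 fold change was -3.43. Without ILL replicate 3 it was -3.20, above the -3.31 of NCAPG in that fit, so the order of NCAPH and NCAPG rests on single libraries.

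NCAPG, which encodes a HEAT-repeat subunit of condensin I, was counted 3340, 3059 and 3109 times in controls and 293, 317 and 358 times with ILL. Its log2 fold change was -3.23 (SE 0.08, adjusted p = 3.4e-21), or 10.7% of control with a 95% interval of 9.53% to 11.9%. The groups were wide apart, and the intervals of NCAPG and NCAPH overlap each other.

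NCAPD2, the gene of the other HEAT-repeat subunit, had 7448, 6734 and 6774 counts in controls and 1368, 1565 and 1326 with ILL. It fell to 21.3% of control, with a log2 fold change of -2.23 (SE 0.06, adjusted p = 8.6e-20). The control libraries were nearly identical after scaling, at 191.7 ± 0.129 CPM (SD, n = 3), while the ILL libraries spread more, at 40.8 ± 4.07 CPM (SD, n = 3).

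The genes of the SMC pair also fell, with log2 fold changes near that of NCAPD2. SMC2 was counted 3518, 3174 and 3164 times in controls and 569, 554 and 641 times with ILL. SMC4 was counted 11494, 10031 and 10026 times in controls and 2044, 1924 and 2153 times with ILL. The levels left were 18.7% for SMC2 (95% interval 16.95% to 20.7%) and 20.3% for SMC4 (18.8% to 22.0%), with log2 fold changes of -2.42 and -2.30. Neither interval reaches that of NCAPG or NCAPH (9.07% to 11.9%), although a difference between members was tested only for the pairs given below. For both SMC genes every control library lay far above every ILL library.

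**Figure D2:**
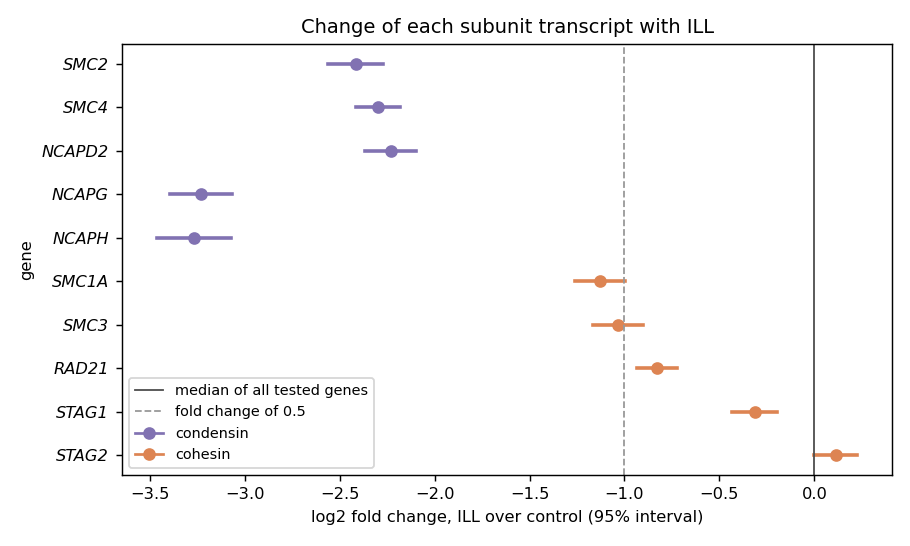
Log2 fold change of each gene between ILL and control libraries, with points at the estimate and bars for its 95% interval from edgeR. The condensin genes lie between -3.27 and -2.23, the cohesin genes between -1.13 and 0.11, the dashed line marks a fold change of 0.5 and the solid line the median of all tested genes.

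The promoters of the condensin genes are shown because these 5 transcripts fell together, and that of STAG1 is shown for comparison as a member with a small change. Windows of 300 bases, 250 before and 50 after an annotated start, were read from RefSeq on GRCh38.p14 and are written 5′ to 3′ on the strand of the gene. Of the 10 members 9 matched, with 14 windows in all, and the window of the start listed first is printed. Capitals mark matches to the cell cycle genes homology region (CHR, TTTGAA or TTTAAA), the CCAAT box (CCAAT), and E2F sites (TTTCCCGC, TTTCGCGC, TTTGCCGC or TTTGGCGC), searched on both strands, so that reverse complements such as TTCAAA are also in capitals.
NCAPH promoter, chr2:96335516-96335815, plus strand: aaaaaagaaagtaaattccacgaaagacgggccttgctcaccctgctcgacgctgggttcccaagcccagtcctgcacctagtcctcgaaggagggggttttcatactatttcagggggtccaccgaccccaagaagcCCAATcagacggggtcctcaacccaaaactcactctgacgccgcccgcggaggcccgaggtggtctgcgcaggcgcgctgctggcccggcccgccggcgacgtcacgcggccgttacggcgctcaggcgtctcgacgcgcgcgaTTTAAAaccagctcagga
NCAPG promoter, chr4:17810729-17811028, plus strand: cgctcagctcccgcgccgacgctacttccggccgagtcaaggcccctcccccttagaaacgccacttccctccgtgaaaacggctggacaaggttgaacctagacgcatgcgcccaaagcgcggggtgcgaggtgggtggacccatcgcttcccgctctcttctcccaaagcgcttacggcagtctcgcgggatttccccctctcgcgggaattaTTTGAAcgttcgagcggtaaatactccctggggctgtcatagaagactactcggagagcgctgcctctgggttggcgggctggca
NCAPD2 promoter, chr12:6493852-6494151, plus strand: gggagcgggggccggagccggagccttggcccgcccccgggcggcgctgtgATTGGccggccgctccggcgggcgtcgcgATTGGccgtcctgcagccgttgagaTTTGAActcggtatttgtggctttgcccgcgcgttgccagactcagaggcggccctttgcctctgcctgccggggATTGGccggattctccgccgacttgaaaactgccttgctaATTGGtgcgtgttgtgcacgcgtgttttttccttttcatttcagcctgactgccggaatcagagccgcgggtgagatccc
SMC2 promoter, chr9:104094059-104094358, plus strand: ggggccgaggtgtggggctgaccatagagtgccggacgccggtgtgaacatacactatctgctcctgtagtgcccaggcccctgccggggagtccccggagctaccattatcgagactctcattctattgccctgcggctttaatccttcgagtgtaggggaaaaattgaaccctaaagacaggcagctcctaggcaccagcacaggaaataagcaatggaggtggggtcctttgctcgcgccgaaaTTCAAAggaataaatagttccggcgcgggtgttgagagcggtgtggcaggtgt
SMC4 promoter, chr3:160399400-160399699, plus strand: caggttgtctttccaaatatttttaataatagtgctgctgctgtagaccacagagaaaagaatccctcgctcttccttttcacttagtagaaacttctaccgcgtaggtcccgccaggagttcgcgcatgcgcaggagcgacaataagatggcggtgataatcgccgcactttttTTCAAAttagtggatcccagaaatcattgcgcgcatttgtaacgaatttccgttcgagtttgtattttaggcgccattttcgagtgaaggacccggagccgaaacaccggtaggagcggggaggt
STAG1 promoter, chr3:136752329-136752628, minus strand: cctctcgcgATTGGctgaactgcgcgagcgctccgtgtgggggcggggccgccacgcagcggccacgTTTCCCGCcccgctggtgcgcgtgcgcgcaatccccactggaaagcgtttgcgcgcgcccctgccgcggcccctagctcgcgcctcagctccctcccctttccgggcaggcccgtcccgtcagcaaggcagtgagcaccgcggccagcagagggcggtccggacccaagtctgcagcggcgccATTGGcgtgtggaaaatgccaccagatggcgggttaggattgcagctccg

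In background, the CHR is known from promoters of genes expressed late in the cell cycle, the CCAAT box is bound by NF-Y, and E2F sites are known from genes of the G1/S transition. TTTGAA was found in the NCAPG window, starting 35 bases before the annotated start, and in the NCAPD2 window, 145 bases before it. SMC2 and SMC4 had it on the opposite strand, 3 and 75 bases before the start. NCAPH had TTTAAA at position 33 after the start and a CCAAT box 112 bases before it. NCAPD2 had 4 CCAAT boxes. Over the 7 condensin windows, 4 held TTTGAA, 1 held TTTAAA, 2 held a CCAAT box and 0 held one of the E2F sites. The 7 cohesin windows held these in 1, 0, 3 and 3 cases. Of all 35116 windows of this length, 15.2% held TTTGAA, 12.2% TTTAAA, 34.6% a CCAAT box and 3.32% an E2F site. These matches describe letters in the windows, and binding was not measured.

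Among cohesin genes, both genes of the SMC pair fell close to the fold change cutoff. SMC1A was counted 3521, 3359 and 3430 times in controls and 1474, 1603 and 1430 times with ILL, a log2 fold change of -1.13 (SE 0.06, adjusted p = 5.7e-14). SMC3, which carries the lysines acetylated when cohesion is established, was counted 3719, 3157 and 3206 times in controls and 1610, 1442 and 1642 times with ILL. Its log2 fold change was -1.03 (SE 0.06, adjusted p = 2.2e-13), and the level left was 48.8% of control, against 45.7% for SMC1A. Without ILL replicate 2 the SMC3 value was -0.99, which is short of the cutoff, and 6 members were then called lower.

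RAD21, the kleisin that separase cleaves at anaphase, was counted 9474, 8093 and 8054 times in controls and 4655, 4505 and 4598 times with ILL. It fell to 56.3% of control (95% interval 52.3% to 60.6%), a log2 fold change of -0.83 (SE 0.05, adjusted p = 3.3e-13). The ILL libraries lay close together at 131.8 ± 1.07 CPM (SD, n = 3), below 234.0 ± 8.72 CPM (SD, n = 3) in controls.

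The STAG genes, which encode the alternative subunits that bind cohesin to partner proteins, differed from each other. STAG1 was counted 3397, 3123 and 3091 times in controls and 2523, 2317 and 2542 times with ILL, a log2 fold change of -0.31 (SE 0.06, adjusted p = 3.1e-05). STAG2 was counted 3526, 3303 and 3272 times in controls and 3614, 3328 and 3491 times with ILL, a log2 fold change of 0.11 (SE 0.06, adjusted p = 0.0714, unadjusted p = 0.0535, edgeR). The scaled ILL values of STAG2, 96.7 to 103.2 CPM, lay just above the control values of 90.8 to 94.0 CPM, but its FPKM values, which are scaled by library totals, overlapped between the groups. Its level with ILL was 108% of control with a 95% interval of 99.9% to 117%. STAG2 passed the test in 3 of 15 alternatives, with adjusted p-values from 0.0401 to 0.505 over all of them and a positive log2 fold change in each.

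Levels of different genes were compared in FPKM, which divides counts by gene length. In controls the order was RAD21 at 65.5 ± 2.71 FPKM (SD, n = 3), SMC4 at 54.8, NCAPD2 at 40.7, NCAPH at 26.1, NCAPG at 23.1, SMC3 at 17.1, STAG2 at 13.8, STAG1 at 13.6, SMC2 at 10.4 and SMC1A at 9.81 FPKM. Within this order STAG2 and STAG1 overlapped, and all other neighbours were apart in every library. With ILL, RAD21 remained highest at 35.1 ± 0.497 FPKM (SD, n = 3), and STAG2 was next at 14.2 FPKM. They were followed by SMC4 at 10.6, STAG1 at 10.4, NCAPD2 at 8.26, SMC3 at 7.95, SMC1A at 4.28, NCAPH at 2.58, NCAPG at 2.34 and SMC2 at 1.87 FPKM. The pairs SMC4 and STAG1, NCAPD2 and SMC3, and NCAPH and NCAPG overlapped in ILL libraries. The length behind the authors' FPKM was 8839 bases for SMC2 and 5391 bases for SMC4, so the level of SMC2 beside its partner depends on which exons were counted.

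Summed over the 5 genes of each complex, condensin was at 155.0 ± 2.36 FPKM (SD, n = 3) in controls and 25.7 ± 0.799 FPKM (SD, n = 3) with ILL. Cohesin was at 119.7 ± 2.94 FPKM (SD, n = 3) in controls and 71.99 ± 1.69 FPKM (SD, n = 3) with ILL. The condensin sum was 1.28, 1.29 and 1.31 times the cohesin sum in controls and 0.338, 0.376 and 0.356 times it with ILL. Condensin transcripts thus exceeded those of cohesin per length in every control library and were below them in every ILL library.

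**Figure D3:**
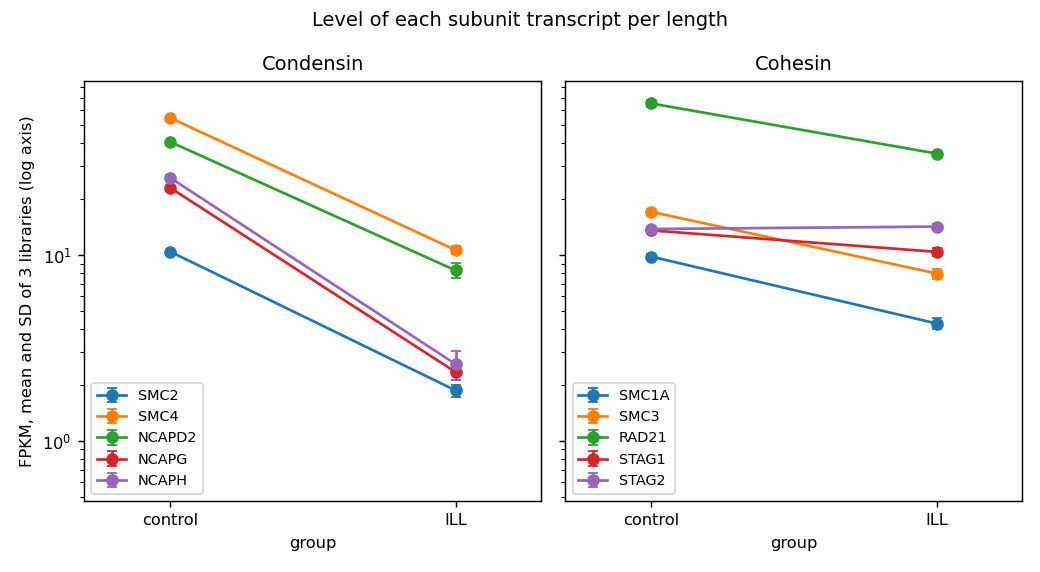
Mean FPKM of each gene in control and ILL libraries on a log axis, with bars for the SD of 3 libraries. Condensin lines fall steeply, from 10.4 to 54.8 FPKM down to 1.87 to 10.6 FPKM, while the STAG2 line is nearly level, at 13.8 and 14.2 FPKM.

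Ratios of counts within a library, which no scaling of libraries can change, were compared for 6 pairs of partners or paralogs by a two-sided exact permutation test over libraries. With 3 libraries against 3 this test cannot give a p below 0.1, so no pair could pass. After adjustment over the 6 pairs, a p of 0.1 became 0.12 and a p of 0.6 stayed at 0.6. STAG1 to STAG2 was 0.963, 0.946 and 0.945 in controls and 0.698, 0.696 and 0.728 with ILL. This is a decrease of the ratio by 1.34-fold, with no overlap between groups (exact p = 0.1). SMC1A to SMC3 overlapped between groups, at 0.947 to 1.07 in controls and 0.871 to 1.11 with ILL (exact p = 0.6). SMC2 to SMC4 was 0.306 to 0.316 in controls and 0.278 to 0.298 with ILL, lower by 1.09-fold (exact p = 0.1).

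The other pairs set subunits of condensin I against their counterparts in condensin II, the form of the complex that is nuclear in interphase. NCAPH to NCAPH2 was 0.641, 0.570 and 0.604 in controls and 0.115, 0.164 and 0.131 with ILL, a ratio 4.47-fold lower with ILL (exact p = 0.1). NCAPG to NCAPG2 was 0.729 to 0.781 in controls and 0.356 to 0.449 with ILL, which is 1.87-fold lower (exact p = 0.1). NCAPD2 to NCAPD3 moved the other way, from 2.71 to 2.82 in controls up to 2.96 to 3.32 with ILL (exact p = 0.1).

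**Figure D4:**
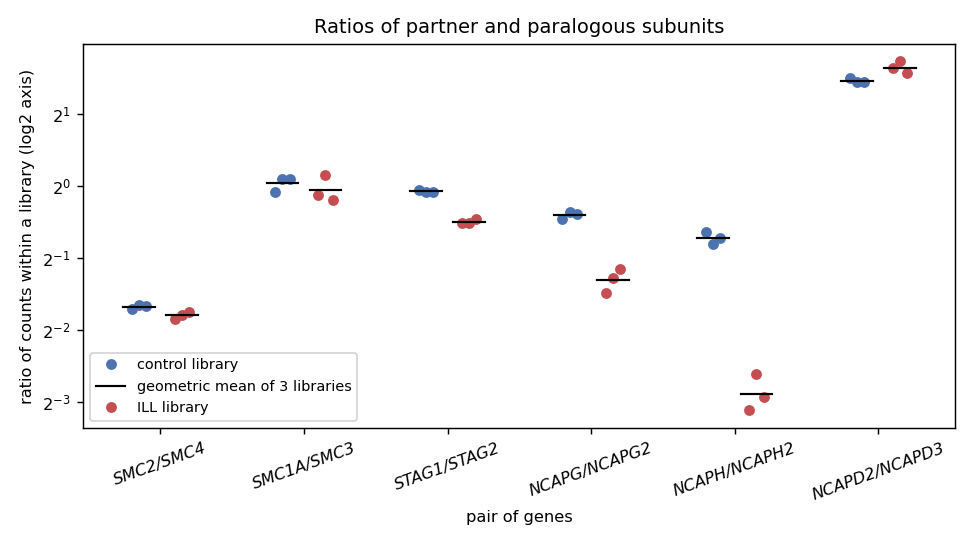
Ratio of counts of paired subunits within each library on a log2 axis, with a line at the geometric mean of the 3 libraries of a group. The groups are apart in all pairs except SMC1A/SMC3, and the widest gap is that of NCAPH/NCAPH2.

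Genes that act with these complexes were taken from lists of related genes. All 3 condensin II subunits fell, beside 36.9% of all tested genes. NCAPD3 and NCAPG2, its HEAT-repeat subunits, had log2 fold changes of -2.42 and -2.33, close to those of SMC2 and SMC4. NCAPH2, its kleisin, fell less, with a log2 fold change of -1.12 (SE 0.06, adjusted p = 1.5e-14), from 4433, 4185 and 4221 counts to 1984, 1885 and 1773 counts. The kleisins of both forms therefore had very different fold changes in these libraries, while the remaining subunits of condensin II did not stand far from the SMC pair.

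All 5 genes for protection and cleavage of cohesin fell, beside 36.9% of all tested genes, with log2 fold changes from -3.23 to -2.50. They are CDCA5 (sororin, which stabilizes cohesin after replication), SGO1 and SGO2 (shugoshins, which protect it at centromeres), PTTG1 (securin) and ESPL1 (separase). CDCA5 was counted 4915, 4519 and 4691 times in controls and 604, 574 and 567 times with ILL. Both acetyltransferases of SMC3 passed the test, in opposite directions. ESCO2, which acts in S phase, had a log2 fold change of -3.34, and ESCO1, which acts through interphase, rose with a log2 fold change of 0.74. ESCO1 was counted 754, 704 and 658 times in controls and 1162, 1168 and 1043 times with ILL (adjusted p = 1.6e-08). HDAC8, the SMC3 deacetylase, did not pass the test (log2 fold change -0.18, adjusted p = 0.228).

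Of 6 genes for loading and release of cohesin or for its positioning, 4 fell, 1 rose and 1 did not pass the test. None of them reached a fold change of 2. Of all tested genes, 36.9% fell and 36.2% rose. NIPBL, the loader of cohesin, was counted 1177, 974 and 1002 times in controls and 908, 1017 and 1071 times with ILL (log2 fold change -0.0048, adjusted p = 0.962). MAU2, its partner, rose by 0.44 on the log2 scale. The release factor WAPL had a log2 fold change of -0.28, PDS5A of -0.18, PDS5B of -0.80 and the boundary factor CTCF of -0.27. In the fit with all 6 libraries these changes were smaller than those of the SMC1A, SMC3 and RAD21 transcripts, without a test of that difference. PDS5B lay close to RAD21, at -0.80 and -0.83. Without control replicate 1 the values were -0.806 and -0.802, and without ILL replicate 2 they were -0.832 and -0.824. The order of PDS5B and RAD21 thus rests on single libraries.

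The SMC5/6 complex, the other SMC complex of eukaryotes and a DNA repair factor, had 6 of 7 genes tested. Of these 3 fell, 1 rose and 2 did not pass the test. Among all tested genes 36.9% fell and 36.2% rose, so these counts are not read as a result about the complex. SMC6 had a log2 fold change of -1.01, SMC5 of -0.40 and NSMCE4A of -0.81, while NSMCE2 rose by 0.22. Of the germline cohesin paralogs, SMC1B had 0 counts in every library, and STAG3 and RAD21L1 had at most 8 counts. REC8, the meiotic kleisin, was at 71, 75 and 82 counts in controls and 152, 139 and 67 counts with ILL (log2 fold change 0.71, adjusted p = 0.0298). The groups overlapped for REC8, and its call was lost in 7 of 15 alternatives, including the fits without control replicate 1 or 2 and without ILL replicate 1 or 2, where the log2 fold change was 0.62, 0.72, 0.51 and 0.58. The NSMCE2 call was lost in 5 of 15, among them the fit without ILL replicate 1 (0.19).

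In a list of 12 chromosome scaffold genes and condensin regulators, 11 fell and 9 of these by more than 2-fold. The shares over all tested genes were 36.9% and 11.4%. TOP2A, the topoisomerase that works beside condensin on mitotic chromosomes, was counted 27495, 23978 and 23492 times in controls and 1923, 2047 and 2134 times with ILL, a log2 fold change of -3.55 (SE 0.06, adjusted p = 4.0e-24). Its paralog TOP2B, which is not restricted to dividing cells, had a log2 fold change of -0.17, and -0.12 without control replicate 3, where it did not pass the test. CDK1, a kinase that phosphorylates condensin, and AURKB, which aids its loading, had log2 fold changes of -3.08 and -3.28. MCPH1, an inhibitor of condensin II, did not pass the test (log2 fold change -0.14, adjusted p = 0.110). Over all 36 tested genes of the lists of complexes and regulators, 27 fell and 4 rose, with a median log2 fold change of -1.07. For all tested genes the shares were 36.9% and 36.2%.

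**Figure D5:**
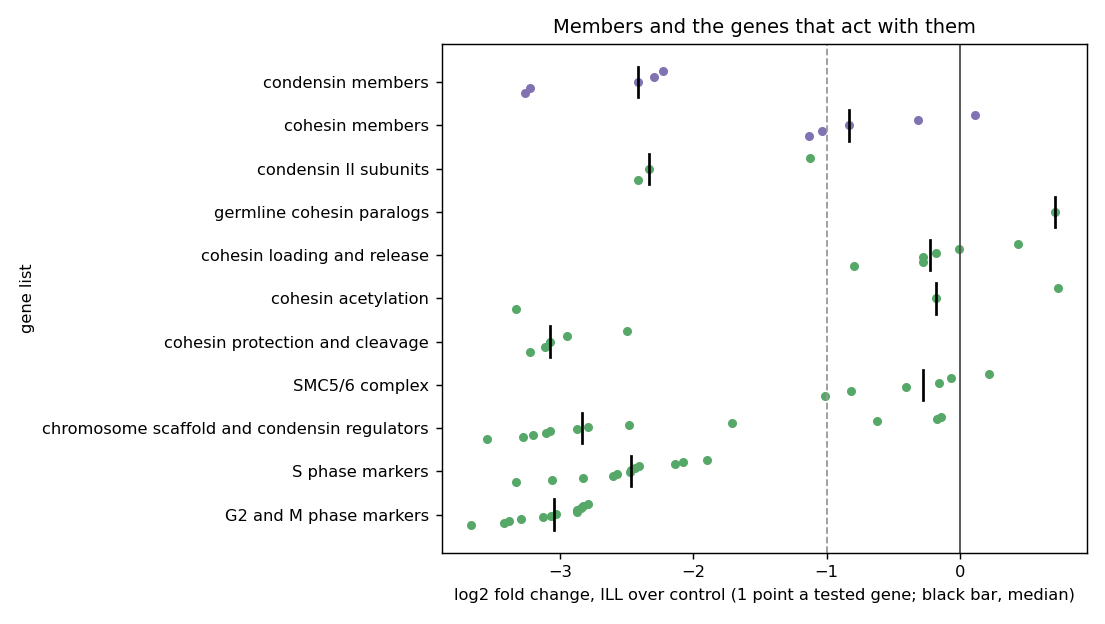
Log2 fold changes of the members and of listed genes that act with them or mark cell cycle phases, with 1 point for each tested gene and a black bar at the median of the list. Condensin members lie in the range of the S phase and G2 and M phase markers, whose medians are -2.47 and -3.05, and cohesin members lie to the right of it. The dashed line marks a fold change of 0.5 and the solid line the median of all tested genes.

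Markers of dividing cells moved with these results. All 12 S phase markers fell, with log2 fold changes from -3.33 to -1.90. All 12 G2 and M phase markers also fell, from -3.67 to -2.79, beside 36.9% of all tested genes. The condensin members lay between -3.27 and -2.23, within the range of both lists together, and the cohesin members lay above it. The part that the share of cells in each phase has in the members' values was not tested. All of these comparisons rest on the same 6 libraries.

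Some members share exon sequence with a gene on the opposite strand, and the sources used here do not say whether counting used strand. By the annotation of GENCODE release 29 on GRCh38, 7 of 10 members overlap an exon of another counted gene. NCAPG (chromosome 4, 17810902 to 17844862) shares 33.1% of its exonic bases with LCORL. LCORL was at 308, 286 and 213 counts in controls and 167, 166 and 142 with ILL, or 8.49% of the NCAPG counts in controls and 49.1% with ILL. SMC4 (chromosome 3, 160399274 to 160434962) shares 18.5% with TRIM59, which had 359 to 452 counts in controls and 89 to 147 with ILL, or 3.80% and 5.49% of the SMC4 counts. SMC4 also shares 7.18% with IFT80, whose counts were 8.23% of those of SMC4 in controls and 24.95% with ILL. STAG1 (chromosome 3, 136336233 to 136752403) shares 21.2% with PCCB, whose counts were 35.96% of those of STAG1 in controls and 35.03% with ILL. NCAPD2 (chromosome 12, 6493356 to 6531955) shares 7.49% with MRPL51, which had 7237 to 8143 counts in controls and 4960 to 5334 with ILL, or 109.7% and 363.8% of the NCAPD2 counts. RAD21 shares 8.37% with UTP23, whose counts were 10.1% of those of RAD21 in controls and 10.4% with ILL. The part of such reads in the members' values was not tested.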

How the data were processed

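RNA-seq was available for HCCC9810 cells, 3 libraries after ILL (20 μM, 24 h) and 3 after vehicle, grouped by the labels. The authors deposited a table of whole-number read counts and FPKM values by gene symbol, with a column of each for every library. The submitters' processing notes name DESeq2 and GRCh38, and the aligner, counting program and annotation are not given in the sources used here. The deposited FPKM values follow from the counts, a length per gene and the library total, for 100% of 88055 nonzero values within 0.1%.

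Counts were filtered with filterByExpr and scaled by TMM in edgeR 4.0.16 (R 4.3.3). ILL was tested against control with the quasi-likelihood test and Benjamini-Hochberg adjustment over 13066 genes, to which all adjusted p-values belong. CPM values are TMM-scaled. DESeq2 1.42.0 and limma 3.58.1 on log2 FPKM were alternatives. The biological coefficient of variation was 0.0717. Simulated counts for these 13066 genes had 200 genes changed 4-fold. At the adjusted p and fold change cutoffs together, 100% of changed genes and 0 others were called. This run had far fewer changed genes than were called in the data. It does not check smaller changes or calls at the adjusted p alone. Libraries of the same group were not duplicates (chi-square per degree of freedom 5.09 to 11.5). TMM factors were 1.02 to 1.03 in controls and 0.970 to 0.982 with ILL. The members and lists were chosen with earlier results of these data known. All members and any gene of the lists could be named. RAD21 has no promoter window here, and a gene of the marker lists is not reported here.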

Additional observations from a re-analysis of the deposited data

How the results depend on the processing

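Of the 10 members, 9 gave the same call at the adjusted p alone in each of 15 alternatives (other scalings and filters, DESeq2's Wald test, the replicate block, limma on FPKM, and each library left out). STAG2 was called higher with DESeq2's size factors, with genes of at least 10 counts throughout and without ILL replicate 2, with log2 fold changes of 0.12, 0.12 and 0.14. The count of members called higher was then 1 in place of 0, and it ranged from 0 to 1 over the fits without 1 library. Related genes called higher were 4, and 2 under limma on log2 of FPKM plus 1, plus 0.1 and plus 1 without a filter, and they ranged from 2 to 4 over the fits without 1 library. Of the 540 values of 36 related genes, 521 left the gene called or not called as before, 13 lost the call and 6 gained it. No called gene changed sign, while NIPBL, which was not called, had a positive value in 5 of its 15 alternatives.

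Same-numbered control and ILL libraries did not deviate together (correlations across genes of 0.0107, -0.0218 and -0.0179). With so few libraries this cannot show whether they were handled in pairs. With the replicate block, 7 members were called lower, 9 fell at the adjusted p alone, 27 related genes fell and 4 rose, as without it, and the NCAPH/NCAPH2 log2 ratio differed by -2.16. With library sizes alone as scaling, the median of all genes moved from -0.0012 to -0.0702 and the share of lower among called genes from 50.5% to 55.1%. Under limma on log2 FPKM plus 1 that share was 57.1%, and 923 genes fell and 668 rose with the fold change cutoff, against 1485 and 1635 (909 rose with FPKM plus 0.1, and 929 fell and 680 rose without a filter). The cause was not tested. Without ILL replicate 2, SMC3 was short of the fold change cutoff and 6 members were called lower. The lowest count of a member was 228, and counting error and spread between libraries are not given apart for single members.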
